A study of Mus musculus with 9 samples.

Results

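The Argonaute and TNRC6 genes encode the core of the machinery that acts downstream of microRNAs. They were measured in granulocyte-macrophage progenitors (GMPs), the bone marrow cells that give rise to neutrophils and monocytes, after deletion of the microRNA-processing enzyme Dicer1. The 7 genes, Ago1 to Ago4 and Tnrc6a to Tnrc6c, are among 18193 genes on the array. They were followed by all probe sets that the platform annotation assigns to one of them alone, which are 27 of 45101. Tnrc6a had 9 of them, Ago3 5, Ago2 4, Tnrc6b and Tnrc6c 3 each, Ago4 2 and Ago1 1. The values were MAS5 signals on 9 Affymetrix arrays, a linear brightness scaled by the authors to the same 2% trimmed mean of 100 on each array. A probe set's signal depends on its probes as well as on its transcript, so signals are compared between genotypes and not between probe sets.

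The 3 groups of 3 arrays were Dicer null, Dicer het (heterozygous deletion) and Dicer wt (wild type). In all of them, controls included, the labels give donor cells with Cebpa-Cre, which drives the recombinase from a myeloid gene, and the R26-LSL-Eyfp reporter, which marks cells in which Cre has acted. The groups differ by the floxed Dicer1 alleles. Fetal liver cells of embryonic day 13.5 were injected into C57BL/6 recipients aged 6 to 8 weeks and irradiated with 8.5 Gy, and EYFP-positive GMPs were sorted from marrow 6 to 10 weeks later. One fetal liver usually served more than 1 recipient and the labels do not tie samples to livers, so the p-values measure the spread between these samples, which may be partly technical.

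Argonaute proteins hold a mature microRNA and use it to find complementary sites in messenger RNAs. AGO2 is the family member in mammals best known for cutting a fully matched target. TNRC6 proteins, also called GW182 proteins, bind Argonaute and recruit deadenylases and decapping factors, which shorten and uncap the target. In other settings, Argonaute proteins without a microRNA partner are known to be unstable, a property of the protein that RNA arrays do not measure.

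In the RefSeq annotation Ago3, Ago1 and Ago4 are neighbours on chromosome 4, Tnrc6a lies on chromosome 7, Ago2 and Tnrc6b lie on chromosome 15 and Tnrc6c on chromosome 11. The upstream 250 bases of 4 genes are shown because Ago1, Tnrc6a and Tnrc6b rose in null cells and Tnrc6c did not pass the test. Ago2, which also rose, has no entry in the promoter table used here. The sequences are from RefSeq (GRCm38.p6), 5′ to 3′ on the gene's strand. Capitals mark GGGCGG or CCAAT on either strand (reverse complements CCGCCC and ATTGG), the letters of the GC box and the CCAAT box.
Ago1 (chr4:126468584-126468833, minus strand): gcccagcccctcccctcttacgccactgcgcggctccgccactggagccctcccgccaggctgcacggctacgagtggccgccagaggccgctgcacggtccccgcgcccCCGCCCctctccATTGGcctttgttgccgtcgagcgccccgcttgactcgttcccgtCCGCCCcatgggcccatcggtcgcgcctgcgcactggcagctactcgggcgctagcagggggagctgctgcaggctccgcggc
Tnrc6a (chr7:123123635-123123884, plus strand): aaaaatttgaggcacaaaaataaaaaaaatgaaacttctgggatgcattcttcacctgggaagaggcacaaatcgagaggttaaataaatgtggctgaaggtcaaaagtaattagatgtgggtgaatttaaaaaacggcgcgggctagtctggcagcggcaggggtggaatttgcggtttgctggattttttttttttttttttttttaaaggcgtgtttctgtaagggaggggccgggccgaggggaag
Tnrc6b (chr15:80711063-80711312, plus strand): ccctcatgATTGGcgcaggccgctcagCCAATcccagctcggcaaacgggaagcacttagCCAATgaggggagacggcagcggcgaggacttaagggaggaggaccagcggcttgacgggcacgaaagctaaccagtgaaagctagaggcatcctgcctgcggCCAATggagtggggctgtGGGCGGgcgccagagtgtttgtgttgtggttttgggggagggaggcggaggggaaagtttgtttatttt
Tnrc6c (chr11:117654039-117654288, plus strand): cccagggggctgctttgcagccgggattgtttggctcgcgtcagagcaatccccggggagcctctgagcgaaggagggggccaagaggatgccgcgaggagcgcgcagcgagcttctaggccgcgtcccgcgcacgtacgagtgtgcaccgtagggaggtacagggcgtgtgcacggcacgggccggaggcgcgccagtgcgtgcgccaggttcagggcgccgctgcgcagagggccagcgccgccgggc

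The Ago1 window held 2 GGGCGG and 1 CCAAT, and the Tnrc6b window held 1 GGGCGG and 4 CCAAT. The Tnrc6a and Tnrc6c windows held 0 of either. Of 32851 RefSeq windows of the same length, 32.7% held GGGCGG and 33.8% held CCAAT. The windows held 28 (Ago1), 9 (Tnrc6a), 14 (Tnrc6b) and 31 (Tnrc6c) CpG dinucleotides, against a median of 6 over all windows. The TATA box letters TATAAA, also searched on both strands, stood in 0 of the 4 windows shown, against 12.4% of all. The E-box letters CACGTG did so too, against 6.02% of all. Of the windows not shown, those of Ago3 and Ago4, which did not pass, held 4 and 5 GGGCGG. A second Tnrc6b window held 0 GGGCGG, 0 CCAAT and 1 CACGTG. The matches are a description only. The Tnrc6a window starts inside the span RefSeq gives the gene.

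Signals of Dicer1, the deleted gene, were compared with the labels. Its probe set 1460571_at averaged 105 ± 9.46 in null, 185 ± 16.1 in het and 232 ± 11.1 in wt cells (SD, n = 3 each), and 1427941_at averaged 51.4, 72.1 and 126 in the same groups. Null against wt passed for both (limma adjusted p = 3.59e-05 and 7.59e-05). Het against wt passed for 1427941_at (0.0101) but not for 1460571_at (0.261). Null against het passed for 1460571_at (0.000826) but not for 1427941_at (0.0566). Where these probes lie relative to the deleted part is not given in the sources used here. Log2 signals correlated at 0.9804 to 0.9863 within genotypes and at 0.9671 to 0.9819 between them, and array medians lay between 12.4 and 16.1. The labels call all samples female. Only wt replicate 2 matched that label, with Xist high (2610) and the Y-linked gene Eif2s3y low (1.13). All remaining arrays showed the reverse, a male pattern, with Eif2s3y at 622 to 859 and Xist at 16.4 to 30.2. Their signals contradict the label if it describes the sorted donor cells. Wt replicate 2 therefore differed in sex-linked signals from the arrays it was grouped and compared with. Argonaute and TNRC6 calls in null against wt that were lost without wt replicate 2 are named below. Calls of the pathway and marker lists were not recomputed without it.

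The summed signals of 10 GMP markers, mostly from Ctsg, Mpo and Prtn3, overlapped between genotypes. They were 25285 to 27306 in null, 25049 to 29135 in het and 24483 to 27300 in wt cells. Mpo, the myeloperoxidase of early granulocytic cells, averaged 7845, 8360 and 7911. Of the 10, Fcgr3 was called higher in null than in wt (1557 against 1204) and Csf3r lower (198 against 261). Csf3r was also called lower in null than in het. The defining T cell markers Cd3e, Cd3g and Cd3d averaged at most 4.97 in any genotype, and the B cell markers Cd79a, Pax5 and Ebf1 at most 7.14. The B cell markers Cd79b and Ighm were brighter. Cd79b averaged 149 in null, 167 in het and 166 in wt cells and was not called. Ighm averaged 407, 927 and 1105 in the same groups and was called lower in null than in either other genotype. The erythroid and megakaryocyte lists held 0 calls. Each of the other lists held calls in null against wt, though some of their summed signals overlapped between genotypes. Of the 5 T and NK cell markers, 4 were too dim to be tested. Summed signals of the 5 T and NK cell markers were 19.7 to 26.0 in null, 24.1 to 30.3 in het and 28.4 to 38.8 in wt cells, and Klrd1, at 8.94 in null and 20.6 in wt cells, was called lower. Summed signals of the 5 B cell markers on the array, mostly from Ighm, were 523 to 608 in null, 1047 to 1155 in het and 1152 to 1391 in wt cells. Those of 4 monocyte markers were 3156 to 3438 in null, 3223 to 3546 in het and 1863 to 3081 in wt cells, and 2 of 4 were higher in null than in wt. Those of 8 neutrophil markers were 2423 to 8800 in null, 2748 to 5036 in het and 3998 to 7464 in wt cells, and Ltf and Ngp were the 2 called lower in null than in wt. Those of 4 mast cell and basophil markers were 3627 to 5560 in null, 2817 to 3420 in het and 3239 to 5044 in wt cells, and Fcer1a was called lower in null than in wt. The part of these lists in the results was not tested.

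The comparison of null with wt cells asks which of these transcripts differ when both Dicer1 copies are deleted. Of the 27 probe sets, 25 reached the filter on low signals (a mean of at least 8.49) and were tested. In null cells 12 of the 25 were higher and 0 were lower, at an adjusted p under 0.05 (limma, Benjamini-Hochberg over 27022 probe sets). Of all tested probe sets 5.04% were higher and 6.17% were lower. The 12 were 7 probe sets of Tnrc6a, 3 of Ago2 and 1 each of Ago1 and Tnrc6b. The 3 null values all lay above the 3 wt values for 13 of 25 probe sets, against 11.5% of all tested. The median log2 change was 0.44 for the 25 and -0.06 for all tested probe sets. Some probe sets are built on the same source sequence, with 20 distinct sources among the 27, so counts of probe sets are not counts of separate measurements. In RNA from a sorted population, a change in which cells it holds and a change in RNA per cell cannot be told apart.

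Counted by gene, with the brightest probe set standing for each, Ago1, Ago2, Tnrc6a and Tnrc6b were higher in null than in wt cells, 4 of 7, against 7.6% of 12347 tested genes called higher. Ago3, Ago4 and Tnrc6c did not pass. Without wt replicate 2, 9 of 25 probe sets and 3 of 7 genes were called, where 3.92% of all tested probe sets were higher. Ago1 was lost as a gene (log2 change 0.32, limma adjusted p = 0.0752), and so were the probe sets 1426366_at and 1455294_at of Ago2, while Ago2, Tnrc6a and Tnrc6b were still called as genes.

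**Figure D1:**
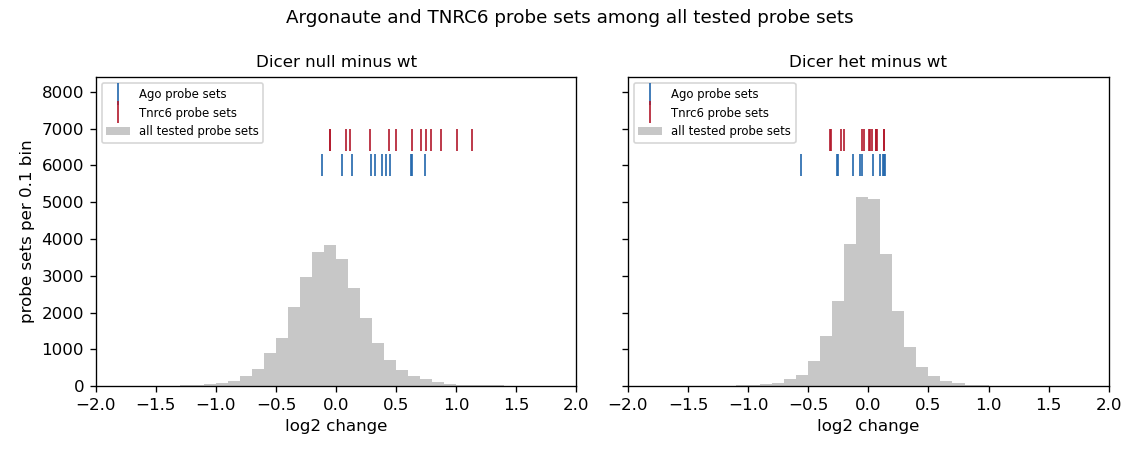
Log2 changes of all tested probe sets (grey bars, number per 0.1 bin) for null minus wt (left) and het minus wt (right), with ticks for the tested Ago (blue) and Tnrc6 (red) probe sets. The 25 ticks have a median of 0.44 in null minus wt and 0.01 in het minus wt.

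Ago1, an Argonaute without the strong cutting activity of AGO2, had 1 probe set. Its signals were 293, 262 and 275 in null, 174, 174 and 196 in het and 225, 217 and 214 in wt cells. The 3 genotypes did not overlap, with null highest and het lowest. The log2 change of null over wt was 0.32 (SE 0.10, limma adjusted p = 0.0450), near the threshold. It was higher in null than in het by 0.58 (adjusted p = 0.00229). Het against wt gave -0.26, with an adjusted p of 0.301 that did not pass. Leaving out any 1 null or wt array took the probe set's null against wt p over the threshold, to between 0.0575 and 0.135, and leaving out het replicate 2 took it to 0.0644.

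Ago2, which encodes the target-cutting Argonaute, had 4 tested probe sets, all with changes above 0 in null against wt cells. Probe set 1455389_s_at gave 289, 271 and 384 in null, 183, 211 and 191 in het and 219, 155 and 176 in wt cells. All 3 null values lay above the other 6. The difference of null from wt was 0.74 on the log2 scale (SE 0.14, adjusted p = 0.00449), a 1.67-fold change. The suffix _s_at marks probes that match more than 1 transcript, though the annotation gives Ago2 alone.

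Probe set 1426366_at of Ago2 gave 259, 197 and 356 in null, 170, 180 and 202 in het and 153, 163 and 187 in wt cells. Null values lay above wt and partly overlapped het. It rose in null against wt by 0.62 (SE 0.16, adjusted p = 0.0261). Probe set 1455294_at gave 286, 179 and 297 in null, 155, 161 and 132 in het and 158, 130 and 181 in wt cells. It rose by 0.64 (SE 0.17, adjusted p = 0.0280), although null replicate 2 was below wt replicate 3. Without wt replicate 2 the adjusted p was 0.0649 for 1426366_at and 0.0991 for 1455294_at. Both also missed the threshold without null replicate 1 (0.0605 and 0.103), null replicate 3 (0.104 and 0.120) or wt replicate 1 (0.0849 and 0.0632). The change of 1426366_at was 0.41 without null replicate 3. The fourth probe set, 1435636_at, shares its source sequence with 1455389_s_at. It averaged 44.1 ± 4.42 in null and 29.5 ± 8.58 in wt cells (SD, n = 3 each), a change of 0.45 that did not pass (adjusted p = 0.116), and 0.29 without wt replicate 2 (0.359). The limma test for unequal change among a gene's probe sets did not call Ago2 (adjusted p = 0.920).

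Ago3 and Ago4 encode further Argonautes that load microRNAs. Ago3 had 5 probe sets, 4 of them tested, and 0 passed in null against wt (0 also at an unadjusted p under 0.05). Its brightest, 1441063_at, gave 151, 76.1 and 92.4 in null, 67.2, 68.4 and 49.2 in het and 74.0, 72.2 and 81.4 in wt cells. Null replicate 1 was far above the rest, and null and wt overlapped (0.38, 95% interval -0.03 to 0.80, adjusted p = 0.235). The other 3 changed by -0.12 to 0.42. The untested Ago3 probe set 1458476_at had signals of 0.61 to 1.62 on the 9 arrays.

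Ago4 had 2 probe sets on 1 source sequence. Probe set 1453289_at gave 93.7, 78.1 and 94.2 in null, 54.0, 72.9 and 73.3 in het and 68.1, 64.2 and 79.3 in wt cells. Null exceeded all het values, and null replicate 2 lay just below wt replicate 3. The difference of null from wt was 0.29 (95% interval -0.02 to 0.60, adjusted p = 0.228), and 1429779_at gave 0.14 (adjusted p = 0.677). These intervals include both 0 and the size of the Ago1 rise. A test of whether Ago2 and Ago4 changed unequally in null against wt gave a difference of 0.45 (two-sided exact permutation p = 0.2, 3 arrays against 3).

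**Figure D2:**
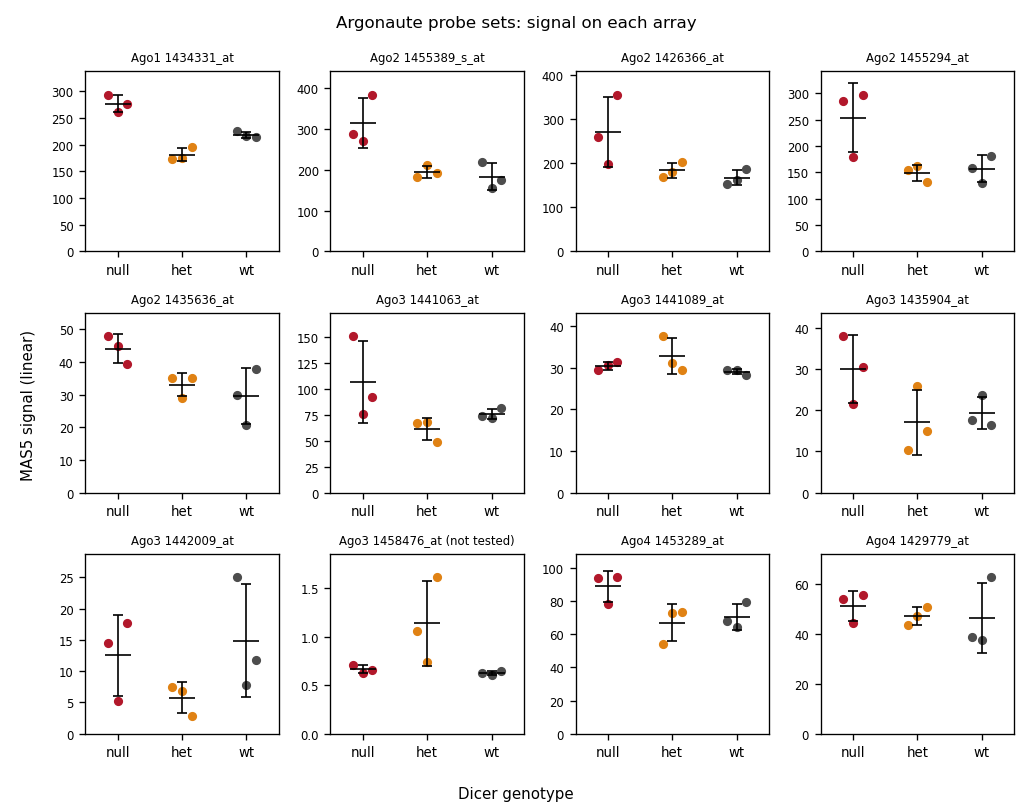
MAS5 signal (linear, axes from 0) of the 12 Ago probe sets on each array, by Dicer genotype. Points are arrays, the long line is the mean and the bars are SD (n = 3). Ago1 in null cells lies at 262 to 293, above wt at 214 to 225, while Ago3 and Ago4 signals overlap between null and wt.

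Tnrc6a, a scaffold that links Argonaute to the deadenylases, had the most called probe sets of these genes. Probe set 1439244_a_at, which stands for the gene, gave 1617, 1468 and 1626 in null, 999, 959 and 879 in het and 928, 913 and 868 in wt cells. The null arrays stood apart from all 6 others, and het and wt overlapped. Null exceeded wt 1.73-fold (log2 change 0.79, SE 0.08, limma adjusted p = 3.22e-05). Null exceeded het by 0.73 (adjusted p = 0.000108).

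Probe set 1455141_at of Tnrc6a had the largest change of the 25. It gave 1089, 997 and 1155 in null, 489, 502 and 475 in het and 482, 518 and 458 in wt cells. This was 2.19-fold higher in null than in wt (1.13, SE 0.09, adjusted p = 2.34e-06), and 0.5% of all tested probe sets rose by more. Probe set 1434899_s_at, on the same source sequence, gave 663, 635 and 640 in null, 324, 342 and 299 in het and 317, 334 and 296 in wt cells, a rise of 1.01 (adjusted p = 8.88e-06).

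The other 4 called Tnrc6a probe sets rose in null against wt by 0.50 to 0.75. Probe set 1425036_a_at averaged 704 ± 16.7 in null, 432 ± 20.4 in het and 449 ± 23.1 in wt cells (SD, n = 3 each). Probe set 1434898_at averaged 380 ± 55.7, 174 ± 11.7 and 220 ± 29.1 in the same groups. The pair that may share probes with other transcripts, 1439246_x_at and 1455128_x_at, averaged 240 and 229 in null against 166 and 135 in wt cells. The null against wt call of 1439246_x_at was lost under 4 of 19 alternatives (limma adjusted p up to 0.0969). For all 7 called Tnrc6a probe sets the null values were above both other genotypes without overlap.

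The remaining Tnrc6a probe sets showed no such gap. Probe set 1439245_at gave 49.0, 54.3 and 39.3 in null, 38.7, 46.9 and 35.8 in het and 46.0, 61.6 and 41.7 in wt cells. Probe set 1457295_at gave 16.4, 18.2 and 17.6 in null, 14.3, 17.3 and 12.4 in het and 20.6, 19.3 and 15.9 in wt cells. The null and wt values overlapped in both, and the change was -0.05 for each (adjusted p = 0.896 and 0.887). Probe set 1439245_at is built on the same source sequence as 1439244_a_at and 1439246_x_at, both of which rose.

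This unequal change within Tnrc6a passed the limma test for differences among a gene's probe sets in null against wt (adjusted p = 5.45e-08). It was the only 1 of the 6 genes with several tested probe sets to pass, and 5.09% of 5677 such genes did. Relative to the gene's other probe sets, 1439245_at deviated by -0.73 and 1457295_at by -0.74, and 1455141_at and 1434899_s_at deviated by 0.60 and 0.46. On simulated data this test made more false calls than its threshold allows. With weights for signal-dependent precision, which made fewer, an alternative added after seeing the data, the adjusted p was 9.24e-07. Signals as low as those of 1457295_at are damped by the pseudocount of 12 added before the logarithm. With a pseudocount of 1 the changes of 1439245_at and 1457295_at were -0.06 and -0.08.

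Tnrc6b, another scaffold of the same family, had 3 tested probe sets. Probe set 1436982_at gave 426, 316 and 576 in null, 243, 257 and 251 in het and 287, 189 and 218 in wt cells. All null values lay above the other 6, though they spread widely. The rise over wt was 0.87 (SE 0.18, adjusted p = 0.00674), or 1.83-fold. The other Tnrc6b probe sets averaged 76.7 against 52.5 for 1426545_at and 61.0 against 47.2 for 1460024_at, null against wt. Their changes of 0.44 and 0.28 did not pass (adjusted p = 0.112 and 0.305), and the 3 probe sets were not called unequal (adjusted p = 0.383).

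Tnrc6c, the third family member, did not pass in any comparison. Probe set 1424645_at gave 460, 416 and 480 in null, 409, 449 and 397 in het and 458, 388 and 401 in wt cells, with all genotypes overlapping. Its change in null against wt was 0.12 (95% interval -0.09 to 0.32), and that of 1460363_at was 0.08 (-0.12 to 0.29). Neither interval reaches the rise of the Tnrc6a or Tnrc6b probe sets that passed. Tested within arrays, null minus wt was greater for Tnrc6a than for Tnrc6c by 0.67 and for Tnrc6b than for Tnrc6c by 0.75. All 3 null arrays exceeded all 3 wt arrays in both, at an exact two-sided permutation p of 0.1, the smallest that 3 against 3 allows (0.15 adjusted over 3 such tests). The untested Tnrc6c probe set 1440997_at ranged from 0.69 to 14.5.

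**Figure D3:**
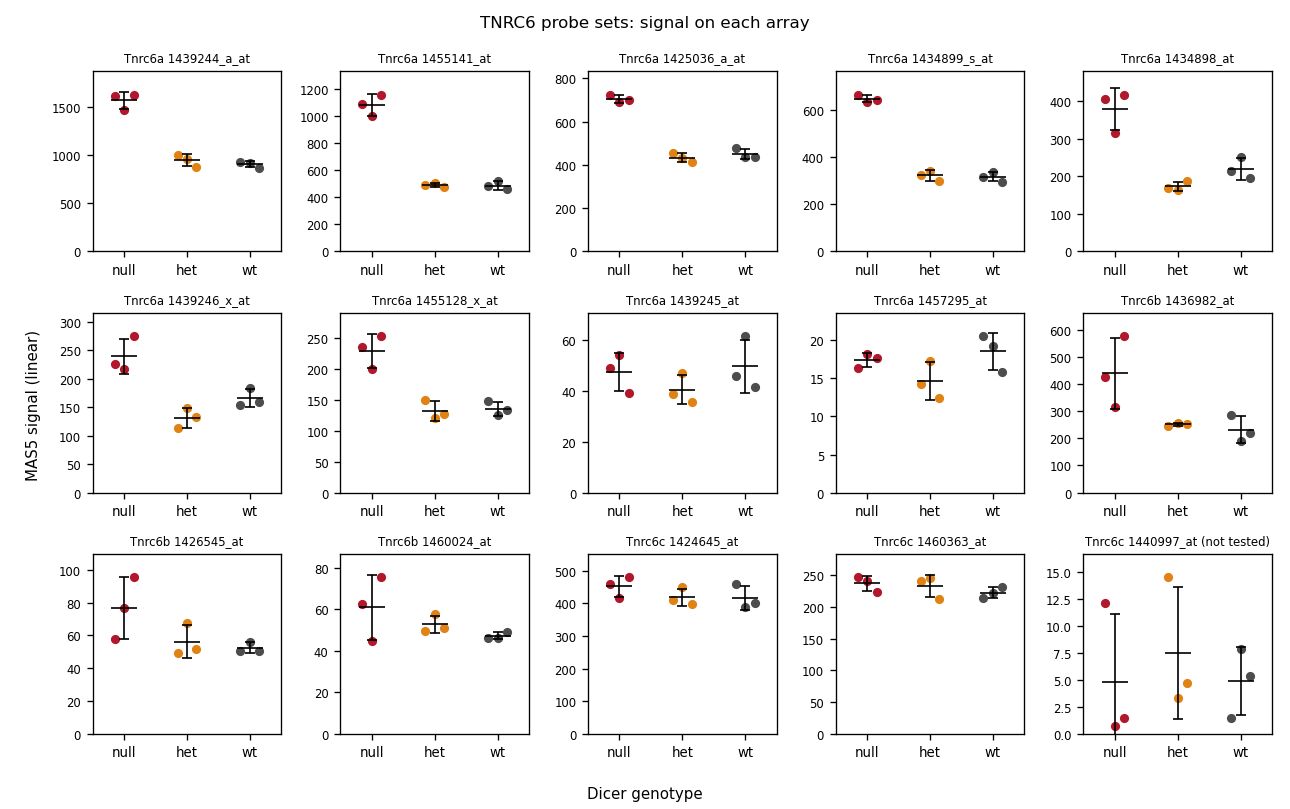
MAS5 signal (linear, axes from 0) of the 15 Tnrc6 probe sets on each array, by Dicer genotype. Points are arrays, the long line is the mean and the bars are SD (n = 3). Tnrc6a 1439244_a_at lies at 1468 to 1626 in null and 868 to 928 in wt cells, whereas Tnrc6a 1439245_at and Tnrc6c 1424645_at overlap.

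Loss of 1 Dicer1 copy gave no call among these genes. In het against wt cells 0 of 25 probe sets passed, against 1.03% of all tested, and 0 of 7 genes, against 1.39% (limma). The smallest p-values were those of Ago1 1434331_at and Tnrc6a 1434898_at and 1439246_x_at, all lower in het. They were far from passing (limma adjusted p = 0.301, 0.329 and 0.338). Their log2 changes were -0.26, -0.32 and -0.31. The 3 het values lay wholly above wt for 2 probe sets and wholly below for 5, against 7.85% and 9.36% of all tested. The median change was 0.01, beside -0.01 for all. For Tnrc6a 1439244_a_at the 95% interval of het minus wt was -0.11 to 0.23. An array control for 18S ribosomal RNA, at its 5′ end, averaged 2746 ± 331 in het and 1314 ± 544 in wt cells (SD, n = 3 each), and its part in these values was not tested.

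Null against het cells gave 11 of 25 probe sets higher and 0 lower, against 4.4% and 4.72% of all tested. They were 7 of Tnrc6a, 2 of Ago2 and 1 each of Ago1 and Tnrc6b. For 14 of 25 the null values lay wholly above het, against 11.8% of all. By gene, 5 of 7 were higher, against 6.84% of all genes. The fifth was Ago3, at 0.65 (SE 0.19, adjusted p = 0.0368), which did not pass in the fit over probe sets (adjusted p = 0.0526). The Ago3 gene call was lost under 9 of 20 alternatives, with adjusted p up to 0.199. Leaving out null replicate 1 gave 0.39 with an adjusted p of 0.144, leaving out null replicate 3 gave a p of 0.0594, and leaving out any 1 het array gave 0.0610 to 0.132. The Tnrc6b gene call was lost under 4 of 20 (limma adjusted p up to 0.0683), and those of Ago1, Ago2 and Tnrc6a under 0. Among probe sets, Tnrc6b 1436982_at and Ago2 1455294_at were each lost under 5 of 19 alternatives and Ago2 1455389_s_at under 3. Tnrc6a was again the only gene of the family whose probe sets differed in their change (adjusted p = 8.88e-06, against 2.57% of genes). In het against wt none of the 6 did, against 0.846%. This comparison shares the null arrays with null against wt. The 18S ribosomal RNA control averaged 1553 ± 252 in null and 2746 ± 331 in het cells (SD, n = 3 each), without overlap. Its part in these calls was not tested. Marker sums of null and het cells overlapped for the monocyte list, in which Cd14 was called higher in null (88.5 against 12.3) and Ly86 lower. They did not overlap for the B cell list, lower in null, or for the mast cell and basophil list, in which Cpa3 and Mcpt8 were called higher in null. Sums of the neutrophil list overlapped, and its member Lcn2 was called higher in null (160 against 27.5). The part of these lists in the result was not tested.

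**Figure D4:**
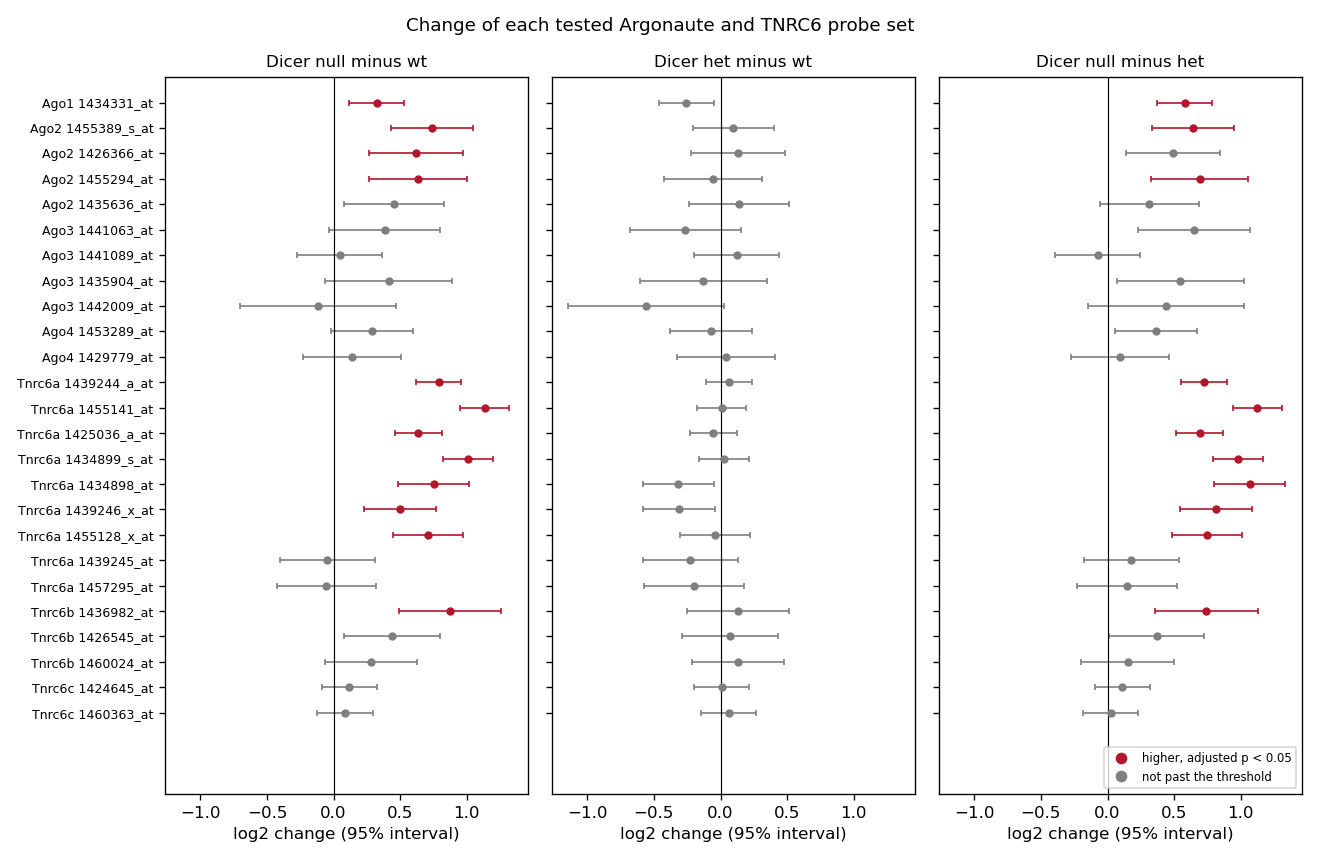
Log2 change with its 95% interval for each of the 25 tested probe sets in null minus wt, null minus het and het minus wt, each panel named by its title. Red marks an adjusted p under 0.05, which 12 probe sets reached in null minus wt, 11 in null minus het and 0 in het minus wt.

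Other genes of the pathway were counted by list in null against wt cells, where 7.6% of all genes were higher and 8.09% lower. Of 12 tested genes for microRNA loading and its chaperones, 1 was higher and 2 were lower. Hspa4, a heat shock protein of the HSP70 group, rose by 0.26, and Dicer1 and the HSP90 partner Cdc37 fell by 1.07 and 0.25. Of 7 tested genes for modification and turnover of Argonaute, 0 passed in either direction. Of 9 tested genes whose proteins bind Argonaute or TNRC6, Fmr1, the RNA-binding protein lost in fragile X syndrome, rose by 0.40, and Zc3h7a fell by 0.57. Of the PIWI clade, the germline relatives of the Argonautes, 1 of 3 genes was tested and it did not pass.

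Among 18 tested deadenylation genes 2 were higher and 1 was lower in null than in wt cells. Cnot6 and Cnot7, both catalytic subunits of the CCR4-NOT deadenylase that TNRC6 recruits, rose. Cnot6l and Cnot8 of the same list did not pass (0.18 and -0.10, limma adjusted p = 0.265 and 0.475). The median change of the list was -0.12. Cnot6 averaged 2081 ± 147 in null and 1249 ± 62.0 in wt cells (SD, n = 3 each), a log2 change of 0.73 (SE 0.09, limma adjusted p = 0.000147). Cnot7 averaged 1695 ± 58.8 in null and 1207 ± 34.5 in wt cells, a change of 0.49 (adjusted p = 0.000327). The poly(A)-binding protein gene Pabpc4 fell by 0.30. Among 12 decapping and P-body genes, Dcp1b, a decapping cofactor, and Patl1, a decapping activator, rose by 0.99 and 0.45, and the cofactor Dcp1a fell by 0.49. Dcp1b was dim and variable, at 41.7 ± 12.4 in null and 17.3 ± 16.7 in wt cells (SD, n = 3 each). Its call was near the threshold (SE 0.31, limma adjusted p = 0.0436). Calls of these lists were not recomputed with arrays left out. The median changes of the lists lay between -0.25 and 0.08 (the PIWI clade, with 1 gene, at 0.34), beside -0.04 for all genes.

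In null against het cells, where 6.84% of all genes were higher and 7.49% lower, Cnot6 and Cnot7 rose by 0.88 and 0.54. Cnot6l and Cnot8 again did not pass (0.22 and 0.08). Hspa4, Fmr1 and Patl1 were higher and Pabpc4, Cdc37 and Dicer1 lower, as in null against wt, and Mapkapk2, a kinase that phosphorylates AGO2, fell by 0.40. In het against wt cells 1 gene of all lists passed. It was Btg1, an antiproliferative factor that binds the deadenylase, which rose by 0.39.

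**Figure D5:**
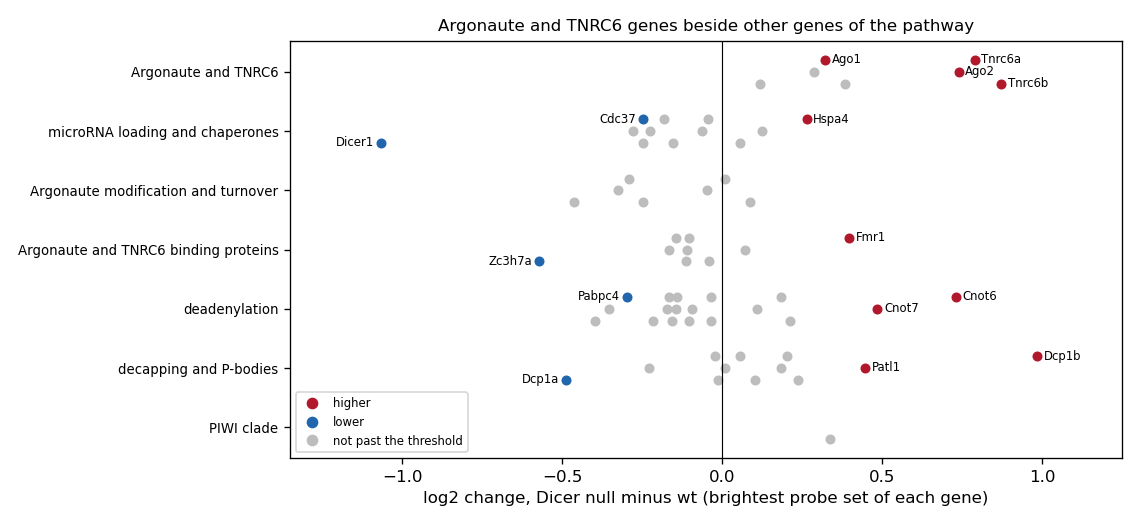
Log2 change in null minus wt of each tested gene (brightest probe set), by list, with Argonaute and TNRC6 at the top. Named points passed at an adjusted p under 0.05, red where higher and blue where lower. Of 7 Argonaute and TNRC6 genes 4 were higher and 0 lower, and of 18 deadenylation genes 2 and 1.

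The genes whose 9-array profiles lay nearest to a member were found by the root mean square difference of log2 values, each gene centred on its own mean. Nearest to Tnrc6a were Dyrk2 (0.056), Pla2g4a (0.069) and Trmt10a (0.080), against a median distance of 0.43 over all genes. Nearest to Ago1 were Rell1 (0.062), Klhl5 (0.066) and Pfkp (0.072), each with a het minus wt change between -0.21 and -0.28. Cpd was among the nearest 3 of both Ago2 (0.094) and Tnrc6b (0.133), the others being Ctbs and Tmx4 for Ago2 and Prrg1 and Tlr4 for Tnrc6b. Within the family, Ago2 was the nearest of all 12346 genes to Tnrc6b (0.117), and Tnrc6b ranked 6 from Ago2. Other family pairs lay further apart. The member nearest to Ago1 was Ago4, at rank 341, and the member nearest to Tnrc6a was Ago2, at rank 118. These distances are descriptions over arrays that share genotype and processing.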

How the data were processed

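RNA of 9 sorted samples was hybridised to 1-colour Affymetrix arrays. The authors deposited linear MAS5 signal intensity values (MAS5 per the submitters' processing notes, version and settings not given in the sources used here), and their 2% trimmed mean is 100 on each array, so a change shared by most transcripts would not be seen. Detection calls were not used here. Arrays have no read depth, and their number limits the precision.

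Probe sets with 1 symbol in the platform annotation were named (34945 of 45101; 932 had several and 9160 none, and 64 were controls). Signals were taken as log2(signal + 12). Changes on this scale understate those of dim probe sets. Probe sets were tested from the 40th percentile of mean signal (8.49) upwards, 27022 in all, and genes by their brightest probe set (12347). limma 3.58.1 in R 4.3.3 (lmFit, eBayes with intensity trend) was fitted to all 9 arrays, two-sided, with Benjamini-Hochberg adjustment and calls under 0.05. Unequal change within a gene was tested with diffSplice over 5677 genes. The fits were tested on simulated data, where diffSplice called more unaffected genes than its threshold allows, and fewer of them with precision weights. No array or batch was modelled as a covariate, since the sources used here name no batch.

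The members and pathway lists were chosen with earlier results of these data known. The text names all members, Dicer1, up to 4 called genes of each list, and the 3 genes nearest in profile to each called member. Mapkapk2, Btg1 and the marker genes named were chosen after their values were seen. Alternatives changed the pseudocount, filter, normalization, variance trend, array weights, arrays in the fit, summary of probe sets and replicate block, and left out each array in turn.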

Additional observations from a re-analysis of the deposited data

How the results depend on the processing

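The 32 Argonaute and TNRC6 results called in any comparison were recomputed under the alternatives, giving 617 values. Of these 557 stayed past the threshold in the same direction, 60 missed it and 0 changed direction. Of 1219 values for the 64 results that were not called, 9 passed and 41 changed sign.

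With each array left out in turn, null against wt gave 8 to 12 probe sets and 3 to 4 genes, null against het 8 to 13 and 3 to 5, het against wt 0 and 0, and unequal change was called for 1 gene in both null comparisons. The 8 in null against wt came without null replicate 3 and without wt replicate 1. For null against het, 3 genes were called without het replicate 1 and without null replicate 3. It also gave 3 genes without the intensity trend and 3 with the mean of all probe sets of a gene. Null against wt gave 8 probe sets without the trend, and 9 without the filter and with only the 6 arrays compared. Over all probe sets, calls in null against wt numbered 3030, but 1792 without the trend, 1833 without null replicate 3 and 1988 without wt replicate 3. Calls in het against wt numbered 278, but 139 without the trend, 181 without the filter, 150 without het replicate 2 and 165 without het replicate 3. Calls in null against het numbered 2464, but 1156 without the trend and 1305, 1248 and 1412 without null replicate 3, het replicate 1 and het replicate 2. The causes were not tested.

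With the replicate number as a block, 12 probe sets and 4 genes were called in null against wt, 13 and 5 in null against het, and 0 and 0 in het against wt. Over all probe sets the block gave 3438 calls in null against wt, 334 in het against wt and 2760 in null against het. Same-numbered arrays correlated in their deviations at -0.03, 0.10 and 0.06 (null with wt), -0.03, 0.03 and 0.03 (het with wt) and 0.07, 0.0033 and 0.18 (null with het). Arrays of unlike number correlated at -0.15 to 0.08. With 3 arrays per group these values cannot decide whether the numbers pair the samples.

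Changes of sign concerned only uncalled values near 0. In null against wt, Tnrc6a 1439245_at gave 0.057 with cyclic loess, 0.061 with quantile normalization and -0.14 to 0.085 with arrays left out. Tnrc6a 1457295_at gave 0.038 with cyclic loess and 0.031 with quantile normalization, and Ago3 1442009_at ranged from -0.31 to 0.14 with arrays left out. In null against het, Ago3 1441089_at gave 0.0057 with cyclic loess and -0.13 to 0.0010 with arrays left out, Tnrc6c 1460363_at -0.036 to 0.065, and the Tnrc6c gene value was -0.035 as a mean of probe sets. In het against wt, Ago3 1435904_at gave 0.00061 with array weights and the Tnrc6a gene value was -0.12 as a mean of probe sets. With arrays left out, het against wt ranged from -0.041 to 0.079 for Tnrc6c 1424645_at (probe set and gene), -0.047 to 0.14 for Tnrc6b 1426545_at, -0.063 to 0.23 for Ago4 1429779_at, -0.14 to 0.049 for Ago4 1453289_at (probe set and gene) and -0.34 to 0.038 for Ago3 1435904_at. It ranged from -0.017 to 0.077 for Tnrc6a 1434899_s_at, -0.13 to 0.022 for Tnrc6a 1455128_x_at, -0.032 to 0.055 for Tnrc6a 1455141_at, -0.024 to 0.28 for Ago2 1435636_at, -0.17 to 0.049 for Ago2 1455294_at and -0.0081 to 0.22 for Ago2 1455389_s_at (probe set and gene).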
